A study of Mus musculus with 22 samples.

Results

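The comparison set the 6 cortex libraries of mice that carry the N40K transgene against the 6 of littermates that do not, at 6 months of age. The carriers were N40K mice (n = 3) and dTg mice (n = 3), which carry the N40K and the 5xFAD transgenes together. The non-carriers were wild-type (WT, n = 3) and 5xFAD mice (n = 3), so 5xFAD status was a second factor that both arms held in equal number. All 4 genotypes came from crosses of heterozygous N40K-Tg and FAD mice, and no other allele or treatment is given in the labels. The 5xFAD transgenes carry mutations of familial Alzheimer disease and are driven by the neuronal Thy1 promoter, while the promoter of the N40K transgene is not given in the sources used here. The labels number the replicates without saying that each came from a separate animal, so the p-values measure the spread between these libraries. The 12 libraries are part of a series of 22. Of the 15705 genes scored at 6 months, the description covers the 9640 (61.4%) with a mean score of 0.02 or more over the 12 libraries. This minimum does not use the carrier status. F10 lay on it at 0.02 and Jmjd6 just outside it at 0.0199.

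N40K is an N-terminal fragment of U1-70K, the product of Snrnp70. U1-70K sits in the core of the U1 snRNP (small nuclear ribonucleoprotein), which pairs with the 5′ splice site of an intron at the start of spliceosome assembly. In Alzheimer disease U1-70K collects in insoluble aggregates in the brain and is found as a truncated fragment. The U1 snRNP also keeps polyadenylation sites inside introns from being used, which matters most for genes with long introns.

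The measurement was the Sd score, a ratio per gene and library from poly(A)-selected, stranded RNA. It is read here as a score of deficient splicing, higher where more unspliced signal was seen. The sources used here give neither its formula nor the gene annotation or read depth, and no counting error can be set beside a score. A score is not an expression level. Of 19 defining markers of cortical neurons, glia and vessels, 16 had a row, among them Slc17a7 of excitatory neurons (mean score 0.029) and Aqp4 of astrocytes (0.0184), whereas Mbp, Cx3cr1 and Cldn5 had none. Such a row shows only that the marker was scored. In bulk tissue a different mix of cells and a different score within a cell type cannot be told apart.

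All scores together stood slightly higher in carriers. The library median over all genes ran from 0.029 to 0.031 in non-carriers and from 0.03 to 0.036 in carriers, a difference of 0.14 on the log2(score + 0.002) scale (1.1-fold; exact permutation test within 5xFAD status, two-sided p = 0.02, 400 regroupings, smallest possible p 0.005). The highest medians were those of N40K replicate 1 (0.036) and dTg replicate 2 (0.035). Without both the difference was 0.0808 (exact permutation p = 0.06). To see which functions moved beyond this shift, each library was centred on its own median, and "rose" and "fell" below mean that a gene passed an adjusted p of 0.05 after that centring (limma, Benjamini-Hochberg over all 15705 genes). Fold changes are on the scale of score + 0.002 after the centring, which draws the folds of low scores towards 1.

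Against this shift 784 of the 9640 genes (8.13%) passed, 409 higher in carriers (4.24%) and 375 lower (3.89%). The split between rises and falls depended on the centring. With libraries centred on their median deviation from the gene means, 831 genes passed (8.62%), 594 higher (6.16%) and 237 lower (2.46%). Without centring 986 passed (10.2%), 874 higher (9.07%) and 112 lower (1.16%). All 3 scalings together left 519 genes (5.38%). Of the 409 rises, 408 (4.23% of the genes) did so, and of the 375 falls 111 (1.15%) did. No called gene changed sign. The median change over the 9640 genes was −0.06 on the log2 scale with own-median centring, −0.00973 with the other centring and 0.08 without. The values of gene groups below are therefore given relative to the median of all 9640 genes, which no such scaling alters. The 6 carrier and 6 non-carrier values did not overlap in 609 genes (6.32%).

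Single libraries weighed on the number of calls, which ranged from 340 without dTg replicate 2 to 765 without dTg replicate 3. It was 359 without WT replicate 2, 393 without N40K replicate 1, 412 without 5xFAD replicate 3, 423 without WT replicate 3, 424 without 5xFAD replicate 1 and 444 without WT replicate 1. Without N40K replicate 1 and dTg replicate 2 together it was 238 (157 higher, 81 lower). A core of 287 genes (176 higher, 111 lower) passed in each of the 12 runs that left out 1 library, and 207 of these passed without both libraries as well. Genes named below as having risen or fallen belong to those 287 and passed in all 3 scalings unless the text beside them says otherwise.

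Among called genes whose 6 carrier and 6 non-carrier values did not overlap after centring, the 15 largest rises were those of Ccdc24 (ENSMUSG00000078588, a coiled-coil protein), Angptl2, Fam53b, Kcnk3, Entpd6, Nmnat1, Zfp114, BC006965, Adamts17, Hrh2, Avil, Rtn4r, Dap, Lmf1 and Dexi, from 3.11-fold down to 1.77-fold. Ccdc24 scored 0.022, 0.026 and 0.045 (lowest, median and highest) in the 6 non-carriers and 0.065, 0.105 and 0.135 in the 6 carriers. The arms do not overlap, as the choice of the 15 requires, and the fit gave 1.64 ± 0.18 (log2 change ± SE, adjusted p = 0.00509). Its annotated span overlaps those of B4galt2 on the same strand and Slc6a9 on the other, and the part of these genes in its score was not tested. Angptl2, a secreted angiopoietin-like protein, went from 0.075 ± 0.0182 to 0.238 ± 0.0957 (mean ± SD, n = 6 each; 2.74-fold, adjusted p = 0.00535). Nmnat1 makes NAD+ in the nucleus. Its scores were 0.006 to 0.016 in non-carriers and 0.023 to 0.047 in carriers, without overlap (2.32-fold, adjusted p = 0.00807). Entpd6, an enzyme that splits nucleoside diphosphates, rose from 0.0153 ± 0.00137 to 0.0482 ± 0.0195 (2.49-fold, adjusted p = 0.00516), and here N40K replicate 1 was the highest library at 0.079. Rtn4r encodes the Nogo receptor, which restrains axon growth. It scored 0.038, 0.0515 and 0.059 in non-carriers and 0.065, 0.101 and 0.174 in carriers (1.82-fold, adjusted p = 0.0154). Hrh2, the histamine H2 receptor, lay at 0.028 to 0.041 in non-carriers and at 0.053 to 0.096 in carriers (1.87-fold, adjusted p = 0.00731). Avil, an actin-binding protein, rose 1.85-fold, Dap, a death-associated protein, 1.8-fold, Lmf1, a lipase maturation factor, 1.78-fold, and Dexi 1.77-fold. The choice of genes whose arms do not overlap fixes the sign in both backgrounds. All 15 passed without the 2 libraries of highest median, apart from Zfp114 (adjusted p = 0.0763).

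The 15 largest falls among genes chosen in the same way ran from 0.366-fold to 0.652-fold. They were Vwa3b, Peg3, Zfp930, Has1, Zp2, Mob3c, Pdia2, Txlnb, Ankrd39, Hmgn2, Armcx2, Ttn, Npm3, Nudt16 and Zfp623. Peg3 (ENSMUSG00000002265) is a paternally expressed zinc-finger gene. Its scores were 0.123, 0.133 and 0.142 in WT, 0.125, 0.13 and 0.135 in 5xFAD, 0.061, 0.069 and 0.073 in N40K and 0.059, 0.082 and 0.083 in dTg libraries. The arms are apart, as the choice requires, and the fitted fold was 0.496 (log2 −1.01 ± 0.12 SE, adjusted p = 0.00509). Has1 makes hyaluronan for the extracellular matrix and went from 0.448 ± 0.091 to 0.274 ± 0.0692 (0.553-fold, adjusted p = 0.0169). Pdia2, a protein disulphide isomerase, stood at 1.67 to 2.47 in non-carriers and at 1.05 to 1.68 in carriers (0.576-fold, adjusted p = 0.0144). The raw ranges overlap slightly, while the centred values were separate. Nudt16, an RNA-decapping enzyme, fell from 0.239 ± 0.0211 to 0.166 ± 0.034 (0.626-fold, adjusted p = 0.00516). Hmgn2, which binds nucleosomes, fell from 0.0373 ± 0.00565 to 0.0247 ± 0.0045 (0.615-fold, adjusted p = 0.00988). Ttn, the giant muscle protein titin, fell from 0.181 ± 0.0152 to 0.124 ± 0.0135 (0.625-fold, adjusted p = 0.00723). Vwa3b missed the threshold in 8 of 12 runs without 1 library (adjusted p up to 0.0917, without dTg replicate 2). Npm3, a nucleoplasmin, missed it in 6 (up to 0.0775, without dTg replicate 2) and had an adjusted p of 0.0832 without centring. Without N40K replicate 1 and dTg replicate 2, Has1 (adjusted p = 0.065), Zp2 (0.0763), Mob3c (0.0595), Hmgn2 (0.0527), Vwa3b (0.0819) and Npm3 (0.0907) missed it. Another annotated gene overlapped 10 of the 15 rises and 5 of the 14 falls that could be matched, against 57.7% of the 8959 genes with an annotation.

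**Figure D1:**
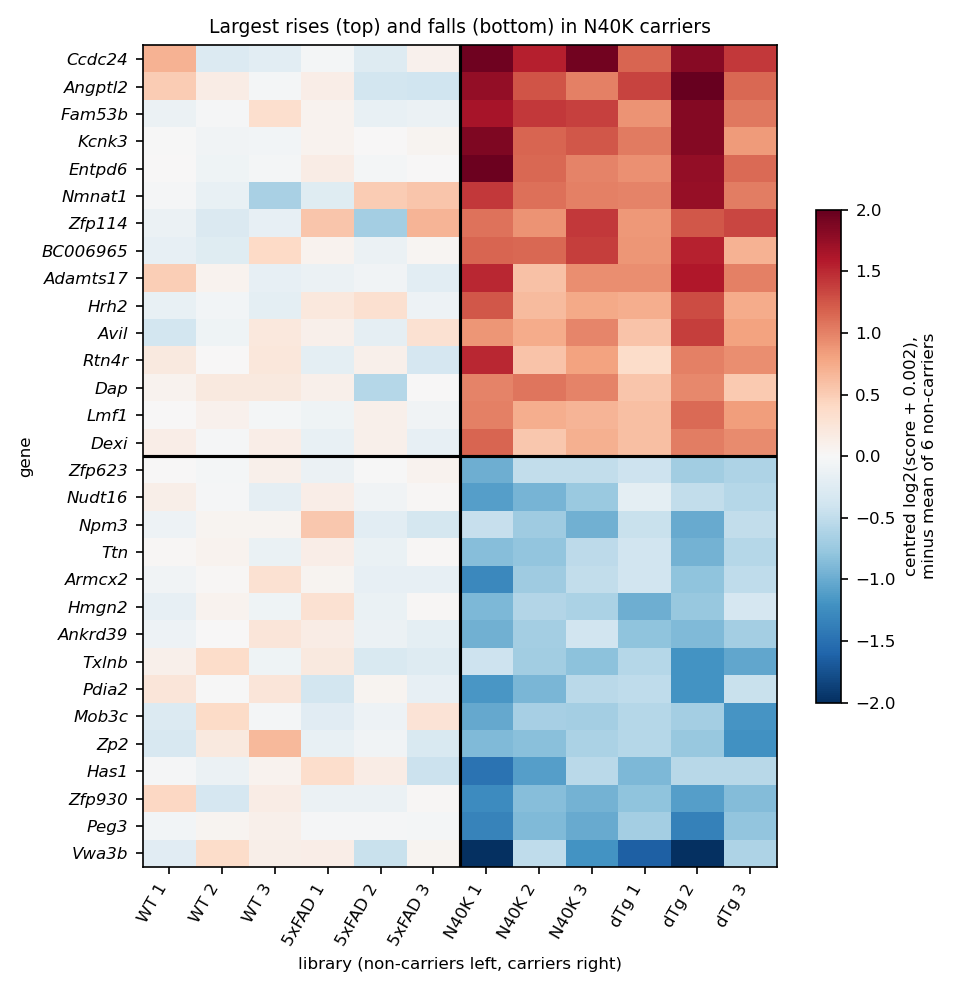
Scores of the 15 largest rises (top) and 15 largest falls (bottom), chosen among genes whose arms do not overlap, in each of the 12 libraries, as log2(score + 0.002) centred on the library median, minus the mean of the 6 non-carriers for that gene. Non-carrier libraries (left of the line) sit near 0, the separation of the arms follows from the choice of genes, and N40K 1 and dTg 2 have the deepest colours in many rows; colours end at 2 and −2.

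Genes of the splicing machinery itself were called in small numbers, from lists of few members. Over all 9640 genes 4.24% were called higher and 3.89% lower. The shares were 11.1% and 11.1% in the U1 list, and 0% and 10.3% in the list of Sm and core proteins. Of 9 measured members among U1 snRNP proteins and their associated factors, Luc7l2 rose and Snrnp70 fell, and the other 7 did not pass. Luc7l2, a U1-associated factor that helps choose 5′ splice sites, scored 0.043 to 0.056 in non-carriers and 0.06 to 0.077 in carriers, with no overlap before centring but some after it (1.27-fold, adjusted p = 0.0305). Snrnp70 (ENSMUSG00000063511), the mouse gene of the protein that N40K derives from, scored 0.044, 0.0445 and 0.046 in non-carriers and 0.039, 0.0415 and 0.045 in carriers. The ranges overlapped before centring, and the fold was 0.848 (adjusted p = 0.0438 with own-median centring, 0.0542 with the other centring and 0.0935 without). Neither call was firm: Luc7l2 missed the threshold in 9 of the 12 runs without 1 library (up to 0.0766, without dTg replicate 2) and Snrnp70 in 10 (up to 0.0938, without WT replicate 2). The score of Snrnp70 is not a measure of the transgene's expression. How the transgene's sequence was mapped is not given, and whether its reads enter this score was not tested. Among 29 Sm proteins and core proteins of the U2, U4/U6 and U5 snRNPs none rose, and Snrpg, Prpf3 and Sart3 were lower with own-median centring (0.782-fold, 0.864-fold and 0.851-fold). Sart3 passed with the other centring too (adjusted p = 0.0415), and none of them passed without centring (0.144, 0.464 and 0.219). Leaving out 1 library took the call from Snrpg in 9 runs (up to 0.0704, without N40K replicate 1), from Prpf3 in 10 (up to 0.0836, without 5xFAD replicate 3) and from Sart3 in 5 (up to 0.0577, without WT replicate 2).

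The smallest adjusted p among the named spliceosome genes was that of Snrnp48, a protein of the U11/U12 snRNP, which recognises the rare minor class of introns. It scored 0.131 to 0.153 in non-carriers and 0.101 to 0.116 in carriers, without overlap (0.703-fold, log2 −0.51 ± 0.06 SE, adjusted p = 0.00509). It was the lone call among 5 minor-spliceosome genes, and the fall was alike in N40K against WT (log2 −0.52) and in dTg against 5xFAD (−0.5). The list as a whole did not fall: 3 of the 5 lay above the median of all genes, and the group median was 0.11 higher. Without centring 2 of the 5 were called higher and 1 lower.

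SR proteins bind exonic enhancers and are phosphorylated by CLK and SRPK kinases. Of 24 SR and SR-related genes Srsf11 and Scaf4 rose and none fell, against 4.24% of all genes called higher, and 17 lay above the median of all genes (group median 0.05 higher on the log2 scale). Scaf4 went from 0.059 ± 0.00456 to 0.0795 ± 0.0092 (1.21-fold, adjusted p = 0.0215) and missed the threshold in 1 run, without dTg replicate 2 (0.0501). Srsf11 went from 0.0305 ± 0.00164 to 0.0408 ± 0.00426 (1.2-fold, adjusted p = 0.0266) and missed it in 6, up to 0.0605 without WT replicate 2. Srpk1, a kinase that phosphorylates SR proteins, rose from 0.0317 ± 0.00175 to 0.0438 ± 0.00479 (1.24-fold, adjusted p = 0.0114), as the single call among 8 CLK and SRPK kinases. Hnrnpu was the single call among 13 hnRNP genes (1.14-fold, adjusted p = 0.0402), and it missed the threshold in 11 of 12 runs (up to 0.0833, without WT replicate 1). None of 6 neuronal splicing regulators and none of 6 RNA-binding proteins of motor neuron disease passed. Celf3 had the smallest p of the former (0.896-fold, adjusted p = 0.107) and Hnrnpa2b1 of the latter (0.888-fold, adjusted p = 0.0649).

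At the 3′ end of the transcript, 2 of 16 cleavage and polyadenylation genes rose (12.5%) and none fell, against 4.24% and 3.89% of all genes. Rbbp6, a cofactor of cleavage, scored 0.058, 0.0695 and 0.072 in non-carriers and 0.091, 0.096 and 0.116 in carriers. All carriers were above all non-carriers (1.35-fold, adjusted p = 0.00988). Papola, the poly(A) polymerase, went from 0.0245 ± 0.00122 to 0.032 ± 0.00297 (1.17-fold, adjusted p = 0.0218) and missed the threshold in 2 runs, up to 0.0549 without WT replicate 2. The median of the 16 was −0.02 relative to all genes, so the group as a whole did not lie higher. Of 32 RNA helicases Ddx19a rose (1.21-fold), while Ddx41 (0.813-fold) and Dhx38 (0.869-fold) were lower with own-median centring alone. Without 1 library their adjusted p reached 0.0639 (without 5xFAD replicate 3), 0.0989 (without 5xFAD replicate 3) and 0.0594 (without WT replicate 3). None of 22 RNA exosome and nonsense-mediated decay genes passed, and Rnps1 had the smallest p (0.869-fold, adjusted p = 0.0522).

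Transcription and chromatin genes gave scattered rises. Smarca1, a nucleosome-remodelling ATPase, rose from 0.0173 ± 0.00186 to 0.0297 ± 0.00468 (1.48-fold, adjusted p = 0.00991). With Arid3b it made up the 2 calls among 44 chromatin regulators (4.55%, near the 4.24% of all genes called higher). Arid3b missed the threshold in 8 runs (up to 0.0879, without dTg replicate 2). Zfp zinc-finger genes were the largest family, with 268 members. Of these 9 rose and 7 fell, against 4.24% and 3.89% of all genes, 173 lay above the median of all genes, and their median was 0.07 higher. Zfp831 rose from 0.0208 ± 0.00293 to 0.0345 ± 0.00599 (1.45-fold) and Zfp114 from 0.0482 ± 0.0187 to 0.115 ± 0.0217 (2.2-fold), while Zfp930 fell from 0.087 ± 0.016 to 0.0473 ± 0.00314 (0.51-fold). In all 3 scalings 9 rises and 5 falls passed.

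Genes of protein synthesis lay below the median of all genes, with few calls. Over all genes 4.24% were called higher and 3.89% lower. Of 53 cytosolic ribosomal protein genes 49 lay below the median of all genes, with a group median of −0.08, yet 1 alone passed. It was Rpl15 (0.834-fold, adjusted p = 0.0446 with own-median centring and 0.314 without), which missed the threshold in 11 of 12 runs (up to 0.0936, without WT replicate 3). Among 45 mitochondrial ribosomal proteins Mrpl3 rose from 0.0408 ± 0.00407 to 0.0587 ± 0.00745 (1.29-fold, adjusted p = 0.0103). Mrps10 was lower with own-median centring (0.747-fold, adjusted p = 0.00998), though not without centring (0.0769). None of 21 translation initiation factors passed. Of 17 aminoacyl-tRNA synthetases 12 lay below the median of all genes (group median −0.05), 1 rose and 1 was lower. Rars2, the mitochondrial arginyl-tRNA synthetase, rose 1.38-fold (adjusted p = 0.00988). Mars was lower at 0.858-fold with own-median centring alone (adjusted p = 0.0482, and 0.0861 without centring). It missed the threshold in 11 runs (up to 0.0985, without 5xFAD replicate 3).

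Proteasome, lysosomal, respiratory-chain and mitochondrial import genes also had medians below that of all genes. Of 18 proteasome genes 15 were below it (group median −0.09) and 3 were called lower (16.7%, against 3.89% of all genes). Psma4, a subunit of the core particle, fell from 0.0282 ± 0.00306 to 0.0243 ± 0.00137 (0.797-fold, adjusted p = 0.0172). Psme2, a subunit of an activator cap, had 0.816-fold with own-median centring (adjusted p = 0.0158) but an adjusted p of 0.233 without centring. Of 33 lysosomal hydrolase and V-ATPase genes 1 rose and 3 were lower (group median −0.09). Atp6v0e, a V-ATPase subunit, rose from 0.0403 ± 0.00242 to 0.06 ± 0.011 (1.32-fold, adjusted p = 0.0144). Galns, a lysosomal sulphatase, was lower at 0.773-fold (adjusted p = 0.00896), with an adjusted p of 0.0887 without centring. Of 34 respiratory-chain genes none rose and 3 were lower (group median −0.06). Ndufab1, an acyl carrier protein of complex I, fell from 0.0483 ± 0.00197 to 0.0393 ± 0.00413 (0.745-fold, adjusted p = 0.00787). Timm17b, of the mitochondrial inner-membrane import channel, fell 0.777-fold (adjusted p = 0.0107), and the median of the 19 import genes was −0.07.

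Ubiquitin and folding factors had calls in both directions with own-median centring, where 4.24% of all genes were called higher and 3.89% lower. Without centring nearly all calls were higher, as they were over all genes (9.07% higher, 1.16% lower). Without centring 7 deubiquitinases, 8 F-box and cullin subunits, 6 RING and TRIM ligases and 2 chaperones were higher, and 1 gene of these lists, an F-box and cullin subunit, was lower. Of 31 deubiquitinases 2 rose and none fell. Atxn3, the gene of ataxin-3, went from 0.031 ± 0.00141 to 0.043 ± 0.0041 (1.24-fold, adjusted p = 0.0153), and Usp11 from 0.0517 ± 0.00121 to 0.0667 ± 0.00432 (1.16-fold, adjusted p = 0.0153). Of 79 F-box and cullin ligase subunits 3 rose and 3 fell. Fbxl20 rose from 0.031 ± 0.00237 to 0.0435 ± 0.00547 (1.25-fold, adjusted p = 0.0139), and Fbxo15 went from 0.73 ± 0.344 to 0.348 ± 0.0986 (0.456-fold, adjusted p = 0.0352) but missed the threshold in 6 runs, up to 0.0904 without dTg replicate 2. Rnf169, which binds ubiquitin at DNA breaks, rose 1.27-fold (adjusted p = 0.0113) among 74 RING and TRIM ligases, of which 2 rose and 2 were lower. Of the falls in these lists, 1 F-box and cullin subunit alone passed in all 3 scalings. Among 31 chaperones Dnaja1, an Hsp40 co-chaperone, rose 1.32-fold (adjusted p = 0.0158), and Bag3, a co-chaperone of selective autophagy, was lower at 0.779-fold (adjusted p = 0.0158) with an adjusted p of 0.0698 without centring. Atg4c, a protease that processes the autophagosome protein LC3, rose from 0.0165 ± 0.00138 to 0.0252 ± 0.00232 (1.34-fold, adjusted p = 0.00509) and was the single call among 17 autophagy genes.

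Potassium channels stood highest of the lists plotted, which have 8 or more members each. Of 29 genes 22 lay above the median of all genes, 3 rose and none fell, and the group median was 0.16 higher. The 3 calls set a share of 10.3%, against 4.24% of all genes called higher. Kcnk3, which carries the background current that holds the resting potential, scored 0.02, 0.021 and 0.021 in WT, 0.022, 0.022 and 0.024 in 5xFAD, 0.053, 0.058 and 0.102 in N40K and 0.045, 0.047 and 0.097 in dTg libraries. The non-carriers were nearly constant, and N40K replicate 1 and dTg replicate 2 stood apart from the other carriers (2.52-fold, adjusted p = 0.00509). Kcna1, a Kv1 channel that limits repetitive firing, scored 0.041, 0.055 and 0.068 in non-carriers and 0.087, 0.091 and 0.119 in carriers, without overlap (1.58-fold, adjusted p = 0.00747). Kcna6, its neighbour in the annotation, went from 0.038 ± 0.00559 to 0.0622 ± 0.0145 (1.44-fold, adjusted p = 0.0346) but missed the threshold in 7 runs, up to 0.0803 without N40K replicate 1. Set against genes of the same intron length, the channels' median was 0.17 higher. It was 0.15 higher in N40K against WT and 0.18 higher in dTg against 5xFAD.

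Other neuronal lists were small and gave few calls each. Over all genes 4.24% were called higher and 3.89% lower. Among 12 sodium and calcium channels Hcn4, a pacemaker channel, rose (1.35-fold, adjusted p = 0.0475), though it missed the threshold in 11 runs (up to 0.103, without dTg replicate 2). Glutamate receptors and postsynaptic scaffolds had 2 lower calls among 16 genes (12.5%) and a median of −0.01. Grin1, the obligatory subunit of NMDA receptors, scored 0.045, 0.0465 and 0.049 in non-carriers and 0.038, 0.042 and 0.047 in carriers (0.819-fold, adjusted p = 0.0113). The raw ranges overlapped in this gene. Grm2, a presynaptic metabotropic receptor, was lower at 0.813-fold (adjusted p = 0.0144), with an adjusted p of 0.0999 without centring. None of 16 genes of synaptic vesicle release and none of 9 GABA receptor, transporter and interneuron genes passed. Among them Sv2a (0.892-fold, adjusted p = 0.0718) and Dlx1 (0.725-fold, adjusted p = 0.0586) had the smallest p. Atp1b3, a subunit of the sodium pump, fell from 0.0318 ± 0.00147 to 0.0265 ± 0.00152 without overlap (0.767-fold, adjusted p = 0.00732).

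Signalling and transport genes had calls in both directions, as had all genes (4.24% higher, 3.89% lower). Of 172 solute carriers 6 rose (3.49%) and 7 fell (4.07%), near the shares over all genes, with 2 of the falls passing in all 3 scalings. Slc38a9, the lysosomal arginine sensor of mTORC1, rose from 0.022 ± 0.00219 to 0.0355 ± 0.00274 without overlap (1.42-fold, adjusted p = 0.00516). Slc19a2, a thiamine transporter, rose 1.4-fold (adjusted p = 0.0122) and Slc39a14, a zinc and manganese transporter, 1.36-fold (adjusted p = 0.0113). Slc9a5, a sodium-proton exchanger, fell from 0.0513 ± 0.00266 to 0.0415 ± 0.00404 (0.741-fold, adjusted p = 0.0119). Among 42 Rab GTPases and regulators 3 rose and 2 were lower, among 36 kinesin, dynein and tubulin genes 3 and 2, and among 33 Wnt, Notch and TGF-beta genes 1 and 2, and none of these falls passed in all 3 scalings. Activity-regulated genes had 1 call in each direction among 21 and a median of −0.08. The rise was Inhba, an activin subunit (1.45-fold, adjusted p = 0.0413), which missed the threshold in 9 runs (up to 0.0991, without dTg replicate 2), and the lower gene was Gadd45b (0.752-fold, adjusted p = 0.025, and 0.0731 without centring), which missed it in 4 (up to 0.0577, without WT replicate 2). None of 14 circadian clock genes and none of 20 cholesterol synthesis genes passed.

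Extracellular matrix genes held 6 rises and 2 falls among 66, against 4.24% and 3.89% of all genes, and 1 of the 2 falls passed in all 3 scalings. Adamts17, a secreted metalloprotease, rose from 0.0148 ± 0.00319 to 0.0388 ± 0.0138 (2.14-fold, adjusted p = 0.00919), and Timp4, an inhibitor of matrix metalloproteases that lies inside Syn2 on the other strand, from 0.164 ± 0.0269 to 0.255 ± 0.0501 (1.4-fold, adjusted p = 0.00988). Adamts8 rose as well (1.37-fold, adjusted p = 0.0215) but missed the threshold in 4 runs, up to 0.0527 without WT replicate 2. Itga5, the fibronectin receptor's alpha chain, fell 0.783-fold (adjusted p = 0.0155). The median of the 66 genes was 0.02 higher than that of all genes.

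Markers of glia and vessels gave 2 calls, both lower, where 4.24% of all genes were called higher and 3.89% lower. They were 1 of 6 astrocyte markers and 1 of 7 oligodendrocyte and precursor markers, too few to read as a result about a cell type. Sox9, a transcription factor of astrocytes, scored 0.023 to 0.028 in WT, 0.042 to 0.05 in 5xFAD, 0.016 to 0.03 in N40K and 0.018 to 0.027 in dTg libraries. Its call (0.621-fold, adjusted p = 0.039) came mainly from dTg against 5xFAD (log2 −1.15), since N40K and WT overlapped (−0.23), and the difference between backgrounds did not pass (adjusted p = 0.992). Olig2, of the oligodendrocyte lineage, went from 0.153 ± 0.0265 to 0.123 ± 0.0128 (0.742-fold, adjusted p = 0.0277). Its log2 change was −0.6 in dTg against 5xFAD and −0.265 in N40K against WT, where the scores overlapped. Of the 7 oligodendrocyte and precursor markers 5 lay above the median of all genes, with a group median 0.03 higher. Sox9 missed the threshold in 8 runs (up to 0.0965) and Olig2 in 6 (up to 0.0695), both at the most without dTg replicate 2. None of 9 microglia markers passed. Their median was −0.11 and 8 of the 9 lay below that of all genes, with Ctsd, a lysosomal protease, at 0.904-fold (adjusted p = 0.103). None of 6 excitatory neuron, 5 interneuron and 8 endothelial and pericyte markers passed. Many listed markers lay below the minimum mean score of 0.02 and were not covered. These were 18 of 24 astrocyte, 8 of 15 oligodendrocyte and precursor and 11 of 20 microglia markers. So were 11 of 17 excitatory neuron, 8 of 13 interneuron and 12 of 20 endothelial and pericyte markers. Of the defining markers named by rule, Slc17a7 and Mog alone reached the minimum.

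Genes tied to Alzheimer disease gave 1 call among 11 (9.09%), a rise, where 4.24% of all genes were called higher and 3.89% lower. Of the 11, 7 lay below the median of all genes (group median −0.06). The call was Adam17, a sheddase that can cut APP (1.15-fold, adjusted p = 0.0347). It missed the threshold in 11 runs (up to 0.0768, without WT replicate 3). App was listed at 0 in all 12 libraries. Of 22 interferon-response genes 15 lay below the median of all genes (group median −0.09), and Adar alone passed. This single rise was 4.55% of the list, near the 4.24% of all genes called higher. Adar encodes the enzyme that edits adenosine to inosine in double-stranded RNA. It scored 0.018 to 0.019 in non-carriers and 0.022 to 0.028 in carriers (1.19-fold, adjusted p = 0.0113). The non-carrier values differ by a single step of the last decimal. Among 16 imprinted genes Peg3, Meg3 and Trappc9 were lower (18.8%, against 3.89% of all genes) and none rose. Meg3, a maternally expressed noncoding RNA, had 0.84-fold (adjusted p = 0.0289) and missed the threshold in 7 runs (up to 0.0665, without 5xFAD replicate 3). Trappc9 had 0.85-fold (adjusted p = 0.0199), an adjusted p of 0.198 without centring, and missed it in 1 run (0.0525, without WT replicate 2).

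Genes called higher and genes called lower differed in intron length. The genes called higher had a median total intron length of 22.7 kb, against 11.6 kb over all 9640 genes and 8.03 kb in the genes called lower, while the median number of introns was 7 in each. Over quintiles of total intron length, the share called higher rose from 1.4% through 2.29%, 4.41% and 5.25% to 7.98%, and the share called lower went from 5.25% through 5.02%, 4.08% and 2.68% to 3.01%. The bounds between quintiles were 3.37, 8.3, 15.7 and 31.2 kb. The median change relative to all genes ran from −0.0711 in the shortest to 0.0631 in the longest quintile. In N40K against WT these medians were −0.0698 and 0.0704, and in dTg against 5xFAD −0.0758 and 0.0496. Intron length could be taken from the annotation for 8959 of the 9640 genes (92.9%). The comparison was chosen after the values had been seen and is given without a test.

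The gap between arms could be read library by library. For each library the median deviation from the gene means in the shortest quintile was subtracted from that in the longest, a value that no centring alters. It was −0.0803, −0.0898 and −0.0686 in WT, −0.053, −0.0705 and −0.0782 in 5xFAD, 0.11, 0.0524 and 0.0113 in N40K and 0.022, 0.185 and 0.0142 in dTg libraries. All 6 carriers lay above 0 and all 6 non-carriers below, and N40K replicate 1 and dTg replicate 2 were the highest. Without these 2 the carriers still ran from 0.0113 to 0.0524, above the non-carrier maximum of −0.053. Being deviations from a mean over the same 12 libraries, the signs of the arms oppose each other by construction, and what they show is the gap between arms.

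**Figure D2:**
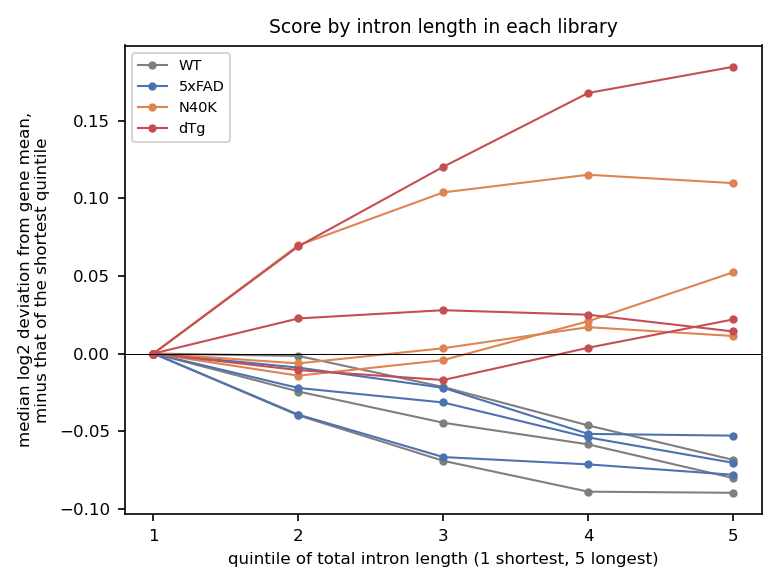
Median log2 deviation of the score from the gene mean in each quintile of total intron length, minus that of the shortest quintile, with 1 line per library (WT, 5xFAD, N40K and dTg, n = 3 each). In the longest quintile the 6 carrier lines end between 0.0113 and 0.185 and the 6 non-carrier lines between −0.0898 and −0.053.

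Long-intron genes had lower scores (median 0.0391 in the longest quintile and 0.178 in the shortest), and the change also varied with the score. The share called higher was 4.78% at mean scores of 0.02 to 0.05 and 1.52% at 0.5 or more. Values within bands of the score are given for the shortest and the longest quintile. At mean scores of 0.02 to 0.05 the median relative change was −0.0659 in the shortest and 0.0692 in the longest quintile, and the share called higher 1.23% and 8.27%. At 0.05 to 0.1 the medians were −0.0569 and 0.0585, with 2.3% and 8.22% called higher. At 0.1 to 0.2 the medians were −0.0611 and 0.054, with 1.46% and 9.09% called higher. At 0.2 to 0.5, where the longest quintile held 90 genes, they were −0.0747 and 0.0176, with 1.15% and 4.44% called higher. At 0.5 or more, where it held 48 genes, they were −0.0816 and 0.0128, with 1% and 2.08% called higher and 4.26% and 4.17% called lower. The number of introns showed less: 3.46% of genes with 0 or 1 introns were called higher and 3.67% of those with 16 or more. Read depth over introns is not given, and its part in these values was not tested.

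**Figure D3:**
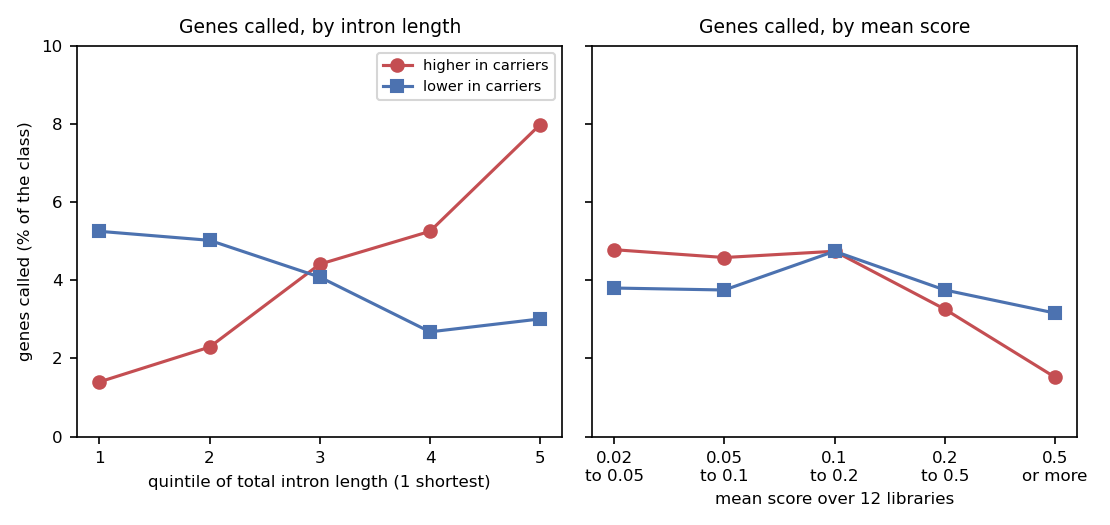
Share of genes called higher (circles) and lower (squares) in carriers, in percent of each class, by quintile of total intron length (left) and by mean score (right). The share called higher climbs from 1.4% to 7.98% with intron length, and it falls from 4.78% to 1.52% with the score.

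Several functional groups differed in intron length, and their medians moved when set against genes of the same quintile. Ribosomal protein genes, with a median of 1.1 kb of introns, went from −0.0823 relative to all genes to −0.0133, and respiratory-chain genes (2.95 kb) from −0.0625 to −0.00656. Deubiquitinases (26.9 kb) went from 0.0358 to −0.0142. Potassium channels (13.9 kb) stayed at 0.172, SR genes (17.3 kb) at 0.0462 and Zfp genes (10.7 kb) at 0.0565. On the lower side microglia markers (3.55 kb) kept −0.0828 and proteasome genes (6.01 kb) −0.0625.

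The 2 backgrounds come from separate libraries, so each can be read by itself. With 3 libraries against 3 no gene passed in N40K against WT or in dTg against 5xFAD (limma, 0%), while 1965 genes (20.4%) and 1572 genes (16.3%) had an unadjusted p under 0.05. Of the 1965 genes, 86.2% lay on the same side of the median in the other background, and of the 1572 genes 88%, against 70.9% of all 9640. Across the 9640 genes, which are not independent replicates, the 2 differences had a Pearson correlation of 0.489 and a Spearman correlation of 0.504. An unadjusted p under 0.05 in both was found in 722 genes, of which 9 had opposite signs. The difference between backgrounds passed in no gene (limma, 0%), with 385 (3.99%) at an unadjusted p under 0.05. Zero calls in a single background were not a stable count: N40K against WT had 165 without dTg replicate 2, which belongs to the other background and enters through the shared spread, and dTg against 5xFAD had 73 without N40K replicate 1.

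**Figure D4:**
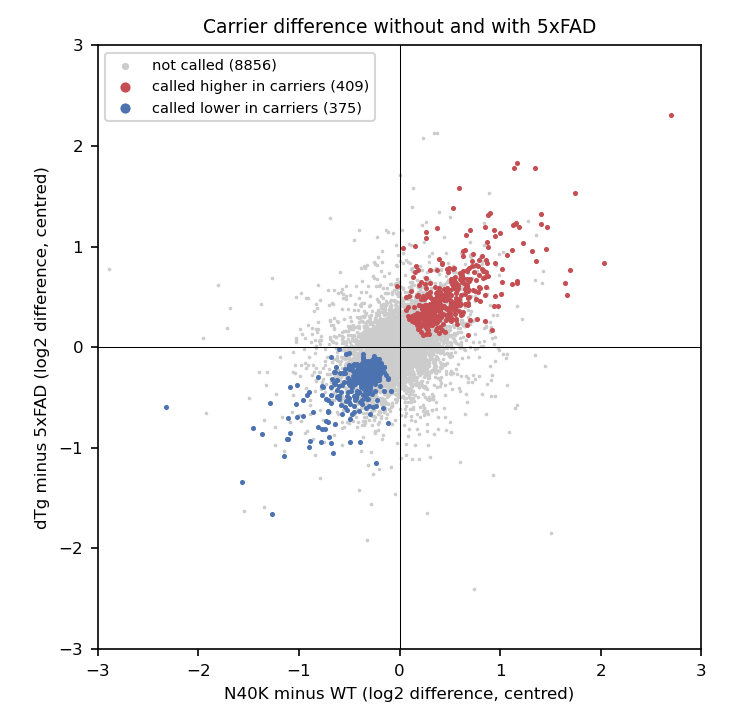
Log2 difference of centred scores in N40K minus WT (horizontal) and dTg minus 5xFAD (vertical) for the 9640 genes, with the 409 genes called higher and the 375 called lower in the averaged comparison coloured. The coloured genes lie along the diagonal, which the averaging favours, and the uncoloured genes lean the same way (r = 0.489 over all genes).

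In most pairs with a called first gene the next gene was not called, though it was called slightly more often than first genes overall. Of 5795 pairs of neighbouring genes on the list, 469 had a called first gene, and in 49 of these (10.4%) the next was called too, against 8.09% of first genes overall. In 35 of the 49 both changed in the same direction. Tmem175, Dgkq, Idua and Slc26a1, 4 neighbours whose spans overlap, were all called lower with own-median centring (log2 −0.22, −0.33, −0.37 and −0.41). Idua missed the threshold in 6 runs (up to 0.0696, without dTg replicate 2), and whether the 4 share reads was not tested. BC006965 rose (2.19-fold) beside Sox9, which fell. These neighbours were chosen after their values were seen.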

How the data were processed

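Per the labels' protocols, cortex RNA was poly(A)-selected with DNase treatment and sequenced in stranded 100 bp paired-end mode. Per the submitters' processing notes the tools were CASAVA, STAR, BWA and bedtools 2.16.1, with build mm9. The authors deposited the Sd score as a ratio per gene and library, rounded to 3 decimals. From it log2(score + 0.002) was computed, each of the 12 libraries was centred on its own median, and limma 3.58.1 in R 4.3.3 was fitted with 1 term per group (8 residual degrees of freedom). The contrast averaged N40K minus WT and dTg minus 5xFAD.

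Genes were named by rule: the 15 largest rises and falls whose arms did not overlap, up to 4 called members per list (or the member of smallest p) and transgene-related genes; predicted genes (163 of the called) were not named. The members and the 59 lists were chosen with earlier results of these data known, and 33 mismatched list entries were removed after values were seen. GENCODE M21 (GRCm38) gave intron lengths and overlaps by Ensembl identifier only. Its build differs, so no positions are printed. The fit was tested on simulated data. Alternatives were other centrings, pseudocounts and minimum means, options of limma, a replicate block and the omission of libraries. The 12-month libraries were not used here.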

Additional observations from a re-analysis of the deposited data

Results flagged for a closer look

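In 8 of 266 tested sets of 6 libraries (3.01%), 1 library stood apart from the other 5 by Dixon's criterion on centred values, where chance gives about 1 in 20. Among carriers, dTg replicate 2 had the highest score of Kcna1 (0.119, next 0.103) and N40K replicate 1 that of Scaf4 (0.096, next 0.084). Among non-carriers, WT replicate 1 was highest in Bag3 (0.037, next 0.03) and in Inhba (0.084, next 0.065), and 5xFAD replicate 3 in Atxn3 (0.033, next 0.032). WT replicate 3 was lowest in Arhgap40 (0.052, next 0.073), 5xFAD replicate 2 in Dap (0.028, next 0.041) and 5xFAD replicate 1 in Adar (0.018), a score that other libraries share before centring. The cause was not tested.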

How the results depend on the processing

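The 784 calls became 365 when genes of mean 0.05 or more alone were fitted, 404 with a replicate block and 238 without N40K replicate 1 and dTg replicate 2, and 340 to 765 without a single library. No called gene changed sign. The library shift was 0.0808 without those 2 libraries (exact permutation p = 0.06) and 0.135 with regrouping inside replicate numbers (p = 0.0625, smallest possible 0.0312). Same-number correlations ran from −0.191 to 0.0833 and those of other pairs from −0.145 to 0.153. Of the 12 libraries, 1 correlated best with its own number. The labels do not say whether a number stands for a pair or batch, and correlations among so few libraries cannot settle it. For N40K minus WT, 0 calls became 13 without centring, 20 with the deviation centring, 43 with quantile normalization, 13 and 2 with pseudocounts of 0.001 and 0.01, 31 and 15 with minimum means of 0.02 and 0.05, 12 with a trend, 227 with arrayWeights, 29 without both libraries and 0 to 165 without a single library. For dTg minus 5xFAD, 0 became 18, 3, 5 and 21 (no centring, deviation centring, quantile, pseudocount 0.001), 2 with a trend, 15 with arrayWeights, 9 without both and 0 to 73 without a single library. The interaction had 0 in all of these. The cause was not tested. Scores of 3 decimals and unknown depth limit genes near the minimum.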
